A study of Mus musculus with 9 samples.

Results

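Adenocarcinomas of the submandibular salivary gland were set against glands labelled normal in Smgb-Tag mice, gene by gene over the whole array. The comparison used 6 of the 9 Illumina BeadChip arrays of the series, 3 of adenocarcinoma and 3 of normal gland, assigned by the stage in their titles, with every labelled array kept. The other 3 arrays, of glands with dysplasia, entered the fit to estimate the spread and are quoted where they help to place a gene. The question was which genes separate the tumours from the gland they arose in.

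The adenocarcinoma group held glands of Smgb-Tag genotype with the tumour stage adenocarcinoma, and the normal group held glands of the same genotype with no tumour stage. The normal glands therefore carried the transgene too, and no gland without it was analysed here. By the name of the line, the transgene couples control sequence of Smgb, a gene for a secreted salivary protein, to the tumour antigen of the SV40 virus. The labels do not say in which cells of the gland it is active. The labels give no age, sex, strain or treatment, and do not say whether an array stands for 1 animal, for pooled animals or for part of a gland. The spread behind the p-values below is thus that between these samples and may be technical.

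The submandibular gland makes saliva in acinar cells and modifies it in ducts. In mice a special duct segment, the granular convoluted tubule, also secretes kallikreins and growth factors. Large T antigen binds the retinoblastoma protein, which sets E2F transcription factors free to switch on genes of DNA replication and division, and it also binds p53. Tumours usually hold macrophages as well, which secrete chemokines, attracting further cells, and proteases, which cut the matrix.

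All values are log2 intensities of the probe with the highest mean for a gene, and a level may be compared between arrays but not between genes. A value of 6.34 or less lay at background, and 15.63 was the highest on any array. Of the named genes on the array, 12720 had a probe above background on at least 3 of the 9 arrays and were tested. Each array had the same median intensity, 80.7, and 22505 probes above background, because the authors had normalized the arrays to a common distribution. The 3 arrays per group limit the precision. A salivary gland marker was high on all 6 arrays: Bpifa2, a major protein of mouse saliva, stood at 15.33, 14.80 and 15.29 in adenocarcinoma 1, 2 and 3, against 15.50, 15.44 and 15.43 in normal 1, 2 and 3. Epcam, an epithelial adhesion molecule, was near background on every array, at 6.60, 6.81 and 6.27 in adenocarcinoma, against 6.16, 6.34 and 6.55 in normal gland.

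Normal 3 lay apart from normal 1 and 2 and is given on its own throughout. It differed from adenocarcinoma 1, 2 and 3 by at least 2-fold in 1389, 547 and 2327 genes, but from normal 1 and 2 in 3020 and 2875 genes. Genes on which normal 3 stood at least 2-fold above both other normal arrays numbered 1260, and on 1027 of these all adenocarcinoma arrays also exceeded normal 1 and 2. Below both, there were 1303 such genes, with all adenocarcinoma arrays on the same side as normal 3 for 1000. A difference between the groups that rests on normal 1 and 2 alone is therefore kept apart here from one that also holds against normal 3.

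With all 9 arrays in the fit, limma called 0 genes (0%) at an adjusted p under 0.05, and the lowest adjusted p was 0.108. At an unadjusted p under 0.05, 1023 genes (8.04%) were higher and 994 (7.81%) lower in adenocarcinoma. With 3 arrays on each side the smallest p of an exact permutation test is 0.1, so none was run. The 3 adenocarcinoma arrays all lay above the 3 normal arrays for 1322 genes (10.4%) and all below for 1241 (9.76%). The gap between the groups, from the nearest adenocarcinoma array to the nearest normal array, was small for most of these genes, with a median of 0.17 for the higher and 0.13 for the lower ones. It reached 0.5 for 158 higher and 79 lower genes, and 1, that is 2-fold, for 17 higher (0.134%) and 5 lower genes (0.0393%). Fewer arrays widen gaps by construction: in place of 22, a 2-fold gap held for 75, 131 and 54 genes without adenocarcinoma 1, 2 and 3, and for 29, 26 and 1051 without normal 1, 2 and 3.

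On those 22 genes every normal array, normal 3 included, lay at least 2-fold from every tumour. Among the 17 higher ones were genes of myeloid cells (Clec4d, Ccl7, Mmp12, Mpeg1, S100a8 and S100a9), the hedgehog transcription factor Gli3, the chromatin protein Dek and the matrix signalling protein Ccn2. Fewer cells of a type and less RNA per cell cannot be told apart in whole glands, here or in any result below. Limma called 9 of the 17 higher without normal 3, from arrays that also set the gap. Of the 17, 4 (Cep295, Mpeg1, Esyt2 and Sms-ps) also lay above every dysplasia array. Over all genes, 105 (0.825%) lay above every normal and every dysplasia array, and 0 passed in the test against dysplasia (lowest adjusted p in limma 0.886).

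Gli3, which both activates and represses targets of hedgehog signalling, had the widest gap, with 9.90, 9.85 and 10.42 in adenocarcinoma, against 7.31, 7.27 and 8.03 in normal gland. The lowest tumour value stood 1.81 above normal 3, the highest normal one. Its log2 difference was 2.52 ± 0.48 (SE, adjusted p = 0.195 in limma), and all 3 dysplasia arrays, at 8.45 to 10.46, lay above the normal arrays too. Cep295, a protein that builds centrioles, had 9.14, 9.41 and 9.16 in adenocarcinoma, against 6.89, 6.71 and 7.47 in normal gland. The tumour values spanned 0.28, and the log2 difference of 2.22 ± 0.22 had the lowest adjusted p of the comparison (0.108 in limma), yet a further probe of the gene differed by only 0.24. Dek gave 11.95, 12.38 and 11.87 in adenocarcinoma, against 10.18, 9.86 and 10.77 in normal gland, a difference of 1.80 ± 0.27 (adjusted p = 0.160 in limma). The 2 further probes of Dek lay apart in the same direction, by differences of 0.48 and 1.73.

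Mmp12, the elastase of macrophages, showed the largest difference of the 17, at 10.53, 11.38 and 11.93 in adenocarcinoma, against 6.19, 6.46 and 9.30 in normal gland. The means differed 15.6-fold, and normal 3 lay between the tumours and normal 1 and 2, which were near background. The log2 difference was 3.96 ± 0.86 (SE, adjusted p = 0.217 in limma), with 9.74 to 11.64 on the dysplasia arrays. Clec4d, a lectin receptor of myeloid cells, gave 9.26, 9.26 and 10.67 in adenocarcinoma, against 6.01, 6.17 and 7.75 in normal gland. Normal 3 was again the highest normal array, and the difference was 3.09 ± 0.79 (SE).

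Mpeg1 encodes perforin-2, a pore-forming protein of macrophages, and had 12.63, 12.02 and 12.72 in adenocarcinoma, against 10.74, 10.61 and 10.92 in normal gland. Here the normal arrays were tight, and the difference of 1.70 ± 0.30 had an adjusted p of 0.176 in limma. Prf1, the perforin of cytotoxic lymphocytes, gave 9.20, 9.31 and 9.72 in adenocarcinoma, against 8.14, 7.82 and 8.18 in normal gland, again without overlap. Ccn2, a secreted matrix protein also known as CTGF, had 13.30, 13.06 and 14.94 in adenocarcinoma, against 11.82, 11.90 and 11.52 in normal gland, where normal 3 was the lowest array. Further genes of the 17 were Chrnb1 of the muscle acetylcholine receptor, Anxa3 of the annexins, the haem-regulated repressor Bach1, the sulfotransferase Chst2, the membrane tether Esyt2 and Sms-ps, a pseudogene of spermine synthase whose probe may read its parent gene. Their log2 differences ran from 1.31 for Sms-ps to 1.95 for Chrnb1.

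All 5 genes with a 2-fold gap on the lower side were called lower by limma without normal 3, from arrays that also set the gap. For each of the 5, every dysplasia array lay below every normal array. Bcat2, the mitochondrial enzyme that takes the amino group off branched-chain amino acids, had 7.82, 7.63 and 7.89 in adenocarcinoma, against 11.83, 11.85 and 9.12 in normal gland. Normal 3 lay between the tumours and normal 1 and 2, and the difference was -3.16 ± 0.67 (SE, adjusted p = 0.210 in limma). Aldh3b2, an aldehyde dehydrogenase, had 6.79, 6.35 and 6.22 in adenocarcinoma, against 8.85, 9.42 and 8.04 in normal gland. The tumours were at or near background, and the difference was -2.31 ± 0.41 (SE).

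Btrc, the F-box protein that marks beta-catenin and the NF-kappaB inhibitor for destruction, was tight in the normal group, with 8.25, 8.08 and 7.80 in adenocarcinoma, against 9.39, 9.33 and 9.41 in normal gland. Its difference was -1.33 ± 0.16 (SE, adjusted p = 0.112 in limma), while 3 further probes differed by -0.80 to -0.03. Pitpnm2, a phosphatidylinositol transfer protein, gave 8.62, 8.51 and 8.15 in adenocarcinoma, against 10.31, 10.14 and 9.83 in normal gland, and Slc35c2, a transporter-like protein of the Golgi, differed by -1.37 ± 0.28. The 15 genes that followed by size of gap included Pcx, the mitochondrial pyruvate carboxylase (-1.55), Pdk2, a kinase that holds pyruvate dehydrogenase off (-1.37), Acsf2, an acyl-CoA synthetase (-1.58), and Anpep, the aminopeptidase N (-2.09). They also held Bcl9l, a cofactor of beta-catenin, at -1.48 ± 0.19, whose other probe differed by 0.29 the other way.

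**Figure D1:**
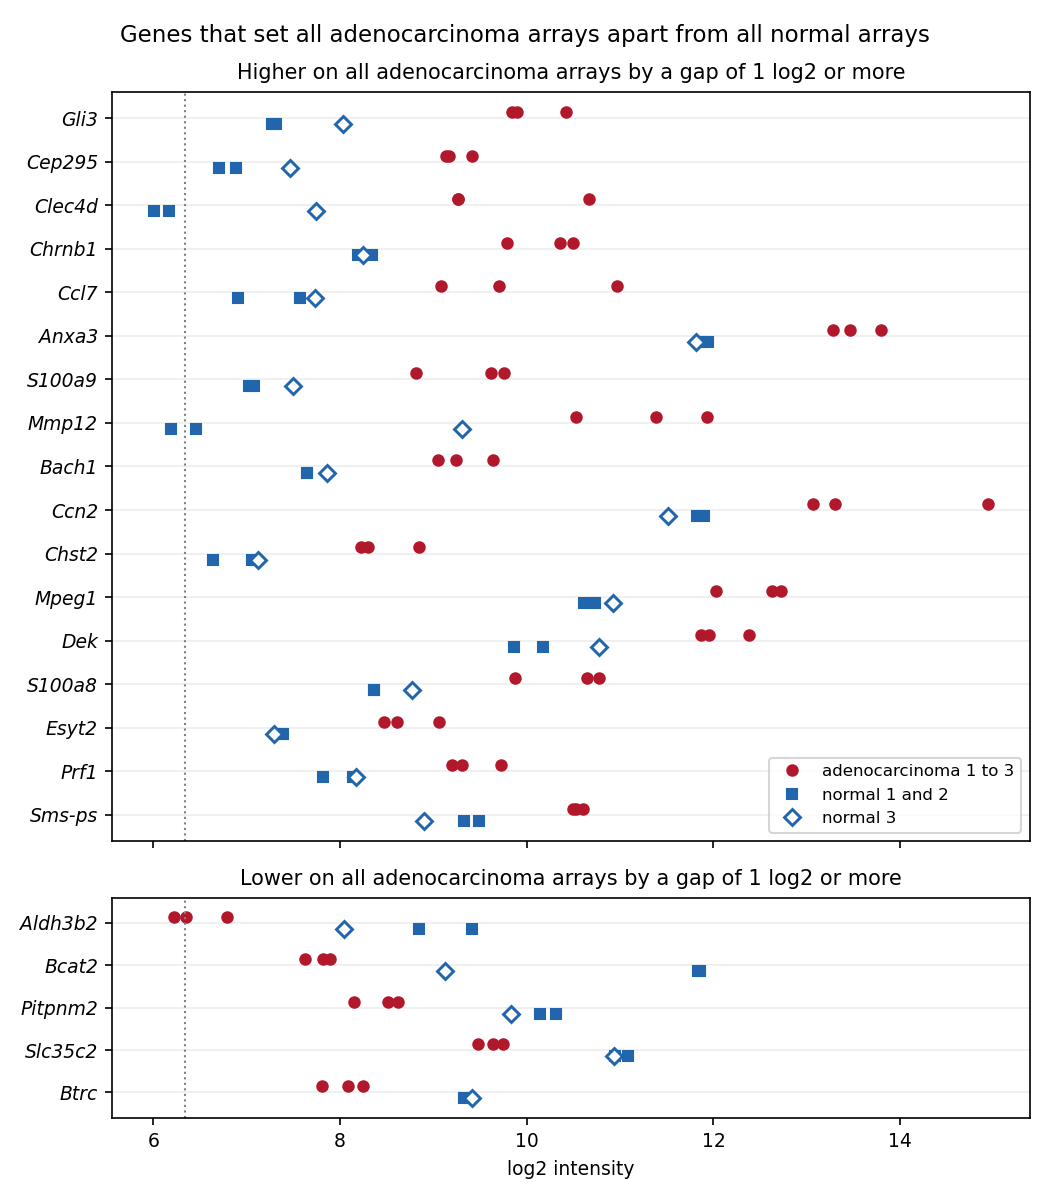
Log2 intensity (x axis) of the 17 genes higher and the 5 genes lower on all adenocarcinoma arrays by a gap of 1 or more on the log2 scale, with 1 row a gene. Red circles are adenocarcinoma 1 to 3, blue squares normal 1 and 2, open diamonds normal 3, and the dotted line is the background level of 6.34; on Mmp12, Clec4d and Bcat2 normal 3 lies between the other arrays, and on Chrnb1, Anxa3 and Btrc it lies with normal 1 and 2.

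Genes were next grouped into 60 lists by cell type or function and described by how many measured members lay apart between the groups. Of the lists, 7 had at least 25% of their members higher in adenocarcinoma without overlap, 1 had at least 25% lower, and 15 had no member apart. The median log2 difference was above 0 in 32 lists and below 0 in 28, against a median of 0.01 over all genes tested. A gene seen in adenocarcinoma alone passes the filter by being high there, so these counts describe the lists and do not test them.

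Macrophage and monocyte genes had the largest share of members (50%) higher without overlap among the 60 lists. Of 24 measured members of a list of 27, 12 were higher on all adenocarcinoma arrays than on any normal array and none was lower, against 10.4% and 9.76% of all genes. The list median was 11.18, 10.09 and 11.07 in adenocarcinoma 1, 2 and 3, against 9.56, 9.67 and 9.65 in normal 1, 2 and 3. All tumours exceeded all normal arrays, adenocarcinoma 2 by the least, and normal 3 lay between normal 1 and 2. The median log2 difference was 0.99, with 22 of 24 members above 0, and the summed intensity ran from 78442 to 102135 in adenocarcinoma, against 38251 to 52053 in normal gland. Without normal 3, limma called 7 members higher and 0 lower, where 7.59% and 7.85% of all genes were called.

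Among those 12, Lyz2, the lysozyme of macrophages, had 13.73, 13.56 and 14.41 in adenocarcinoma, against 12.32, 12.63 and 12.29 in normal gland. Normal 3 was the lowest of the 6 arrays compared, and the difference was 1.48 ± 0.77 (SE, adjusted p = 0.373 in limma). Lgals3, the galectin-3 lectin, had 14.23, 14.22 and 14.49 in adenocarcinoma, against 13.08, 13.12 and 13.53 in normal gland. Ms4a7, a membrane protein of tissue macrophages, had 12.58, 11.53 and 12.15 in adenocarcinoma, against 8.96, 9.37 and 10.96 in normal gland, a difference of 2.32 ± 0.55. On both genes normal 3 was the highest normal array.

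Trem2, a lipid receptor of macrophages, gave 10.52, 9.94 and 11.08 in adenocarcinoma, against 7.70, 7.45 and 9.64 in normal gland. Adgre1, an adhesion receptor that marks mouse macrophages, gave 11.55, 10.35 and 11.47 in adenocarcinoma, against 9.79, 10.001 and 9.66 in normal gland, a gap of 0.35. Both lay apart, whereas other defining genes did not. Csf1r, the receptor for macrophage growth factor, had 9.96, 8.78 and 10.19 in adenocarcinoma, against 9.96, 9.98 and 8.85 in normal gland, and Mrc1, the mannose receptor, differed by 0.12 ± 0.90. Gpnmb followed normal 3 instead, with 12.63, 13.14 and 12.24 in adenocarcinoma, against 7.84, 7.65 and 12.31 in normal gland.

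Chemokines, the secreted proteins that draw leukocytes into tissue, gave 10 of 26 measured genes (38.5%) higher without overlap and 0 lower. The shares over all genes were 10.4% and 9.76%, and the median difference of the list was 0.33. Ccl7, which attracts monocytes, had 9.71, 9.08 and 10.97 in adenocarcinoma, against 6.90, 7.57 and 7.73 in normal gland. The difference was 2.52 ± 0.73 (SE, adjusted p = 0.234 in limma), and the other Ccl7 probe differed by 2.59. Its neighbour Ccl2 on chromosome 11, with 0 protein-coding genes between them, had 7.45, 7.51 and 8.67 in adenocarcinoma, against 6.11, 6.25 and 6.61 in normal gland. Adenocarcinoma 3 was the highest array for both.

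Ccl4, which attracts macrophages and T cells, had 10.997, 10.25 and 10.70 in adenocarcinoma, against 7.14, 7.85 and 9.41 in normal gland, a difference of 2.52 ± 0.66. Ccl3, also next to it on chromosome 11, had 8.41, 8.31 and 8.46 in adenocarcinoma, against 6.40, 6.51 and 7.37 in normal gland. Normal 3 was highest among the normal arrays for the 4 chemokines just given, and still below every tumour. Of the receptors measured, Cx3cr1 of monocytes lay apart, at 10.17, 9.16 and 10.24 in adenocarcinoma, against 7.95, 8.48 and 8.97 in normal gland. Other chemokines pointed down without lying apart: Cxcl12, made by stromal cells, had 9.61, 7.65 and 10.49 in adenocarcinoma, against 11.89, 11.50 and 8.11 in normal gland, and Cxcl14 differed by -1.77 ± 0.78. Without normal 3, limma called 2 of the 26 list members higher (Ccl4 and Cx3cr1) and 2 lower (Ccr7 and Cxcr5, receptors of lymphocytes). These counts are near the 7.59% and 7.85% of all genes called higher and lower.

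Matrix proteases and their inhibitors had 7 of 26 measured genes (26.9%) higher without overlap and 0 lower, against 10.4% and 9.76% of all genes. The median difference was 0.56. Mmp13, a collagenase, gave 11.18, 9.86 and 10.72 in adenocarcinoma, against 6.41, 6.43 and 8.92 in normal gland, a difference of 3.33 ± 1.31 (SE, adjusted p = 0.293 in limma). The 2 further probes of Mmp13 differed by only 0.006 and 0.88, and 1 of them lay apart in the same direction. As with Mmp12, its neighbour on chromosome 9, normal 3 stood between the other normal arrays and the tumours. The lysosomal protease Ctsb was tight, with 14.72, 14.63 and 15.06 in adenocarcinoma, against 14.04, 13.998 and 14.06 in normal gland, a difference of 0.77 ± 0.17. Timp1, an inhibitor of metalloproteinases, had 11.79, 10.19 and 12.52 in adenocarcinoma, against 7.87, 7.68 and 10.05 in normal gland, with a gap of 0.13. Plau, the urokinase, and its receptor Plaur lay apart by gaps of 0.06 and 0.10, and the gap of Mmp10 was smaller than either. Mmp2, Mmp9 and Mmp14 were among those that overlapped between the groups.

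Because Mmp12 and Mmp13 led this list, their promoters were read for the AP-1 motif TGANTCA, the site class bound by Fos and Jun proteins. The motif stood in 5 of 20 windows (25%) of the 18 list genes with a promoter in the RefSeq table, against 5.06% of the 13055 windows of all tested genes, with N for any base. The windows are the 250 bases before an annotated start, 5′ to 3′ on the gene's own strand, with the match in capitals. They lie at chr9:7347124-7347373 for Mmp12 and chr9:7272264-7272513 for Mmp13 (GRCm38.p6, plus strand for both). The RefSeq table lists 2 windows for Mmp12, of which 1 holds the motif and is shown. That window lies inside the Mmp12 gene, which spans 7344397 to 7360461, and not upstream of the whole gene. The matches begin 44 and 35 bases before the annotated start that follows the window in Mmp12 and Mmp13. A match describes the letters alone.
Mmp12: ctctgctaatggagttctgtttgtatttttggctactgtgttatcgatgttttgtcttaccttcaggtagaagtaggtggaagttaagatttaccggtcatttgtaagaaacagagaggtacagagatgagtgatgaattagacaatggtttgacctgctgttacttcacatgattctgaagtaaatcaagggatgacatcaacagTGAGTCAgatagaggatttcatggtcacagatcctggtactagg
Mmp13: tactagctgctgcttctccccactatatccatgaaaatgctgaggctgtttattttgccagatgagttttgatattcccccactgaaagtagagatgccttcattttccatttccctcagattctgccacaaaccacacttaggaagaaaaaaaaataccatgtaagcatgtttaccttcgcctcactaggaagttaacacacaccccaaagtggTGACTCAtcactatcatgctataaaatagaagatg

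Genes of the AP-1 family itself did not all follow. In a list of 20 immediate early and stress genes, 5 (25%) were higher without overlap (Fos, Klf6, Egr1, Atf3 and Ier3) and 0 lower. The shares over all genes were 10.4% and 9.76%. Fos had 10.07, 10.05 and 10.26 in adenocarcinoma, against 8.03, 7.65 and 9.22 in normal gland, a difference of 1.82 ± 0.51 (SE, adjusted p = 0.225 in limma). Egr1, a growth-response transcription factor, had 13.77, 13.10 and 13.52 in adenocarcinoma, against 11.21, 11.28 and 12.42 in normal gland. Jun overlapped, with 9.25, 8.52 and 8.55 in adenocarcinoma, against 9.73, 9.34 and 8.47 in normal gland. The list median of 0.13 changed sign with array weights and without normal 3, so the list as a whole has no settled direction.

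Among genes of other leukocytes, the neutrophil list had 4 of 9 measured members (44.4%) higher and 1 (11.1%) lower without overlap. The shares over all genes were 10.4% and 9.76%. S100a9 and S100a8, which form calprotectin and lie next to each other on chromosome 3, set the groups apart by gaps of 1.31 and 1.10. S100a9 had 9.75, 9.61 and 8.81 in adenocarcinoma, against 7.08, 7.03 and 7.50 in normal gland. The dysplasia arrays ran from 6.62 to 11.81, wider than either group. Il1b, the inflammatory cytokine of myeloid cells, had 9.68, 8.15 and 8.54 in adenocarcinoma, against 6.25, 6.61 and 7.24 in normal gland. The fourth higher member, Csf3r, had a gap of only 0.05. Retnlg was the lower member, at 6.24, 6.21 and 6.25 in adenocarcinoma, all at background, against 7.18, 6.56 and 6.40 in normal gland. Cxcr2 and Ltf overlapped between the groups. Elane and Camp, granule genes of neutrophils, stayed within 0.5 of background on all 6 arrays. The list as a whole thus has no common direction.

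Lymphocyte genes did not follow the myeloid ones. Of 12 measured B and plasma cell genes 0 were higher and 1 (Cd22, 8.33%) lower without overlap, near the 9.76% of all genes that were lower. The median difference was -0.95, and limma called 6 of the 12 lower without normal 3, against 7.85% of all genes. Cd79b, part of the B cell receptor, had 8.30, 6.57 and 7.50 in adenocarcinoma, against 9.86, 10.22 and 7.13 in normal gland, so normal 3 lay among the tumours. No T cell gene of 13 lay apart, and the T cell receptor gene Cd3e had 8.29, 6.69 and 7.49 in adenocarcinoma, against 9.12, 9.20 and 7.24 in normal gland. Of 7 genes of cytotoxic cells Prf1 alone (14.3%) lay apart, near the 10.4% of all genes that were higher. Nkg7 had 8.28, 6.50 and 7.30 in adenocarcinoma, against 8.58, 8.99 and 7.37 in normal gland. Genes of lymph node stroma had list medians of 9.19, 6.64 and 7.05 in adenocarcinoma, against 9.25, 9.35 and 7.17 in normal gland. Adenocarcinoma 1 thus lay near normal 1 and 2. Not every member followed: Ccl19 had 6.89, 6.35 and 6.99 in adenocarcinoma, against 8.75, 9.12 and 6.34 in normal gland. Madcam1 alone (14.3%) lay apart, on the lower side, against 9.76% of all genes. The summed intensity of the 7 measured genes of that list was 1150 to 3842 in adenocarcinoma, against 8276, 6914 and 1622 in normal 1, 2 and 3. The part of such tissue in the differences was not tested.

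**Figure D2:**
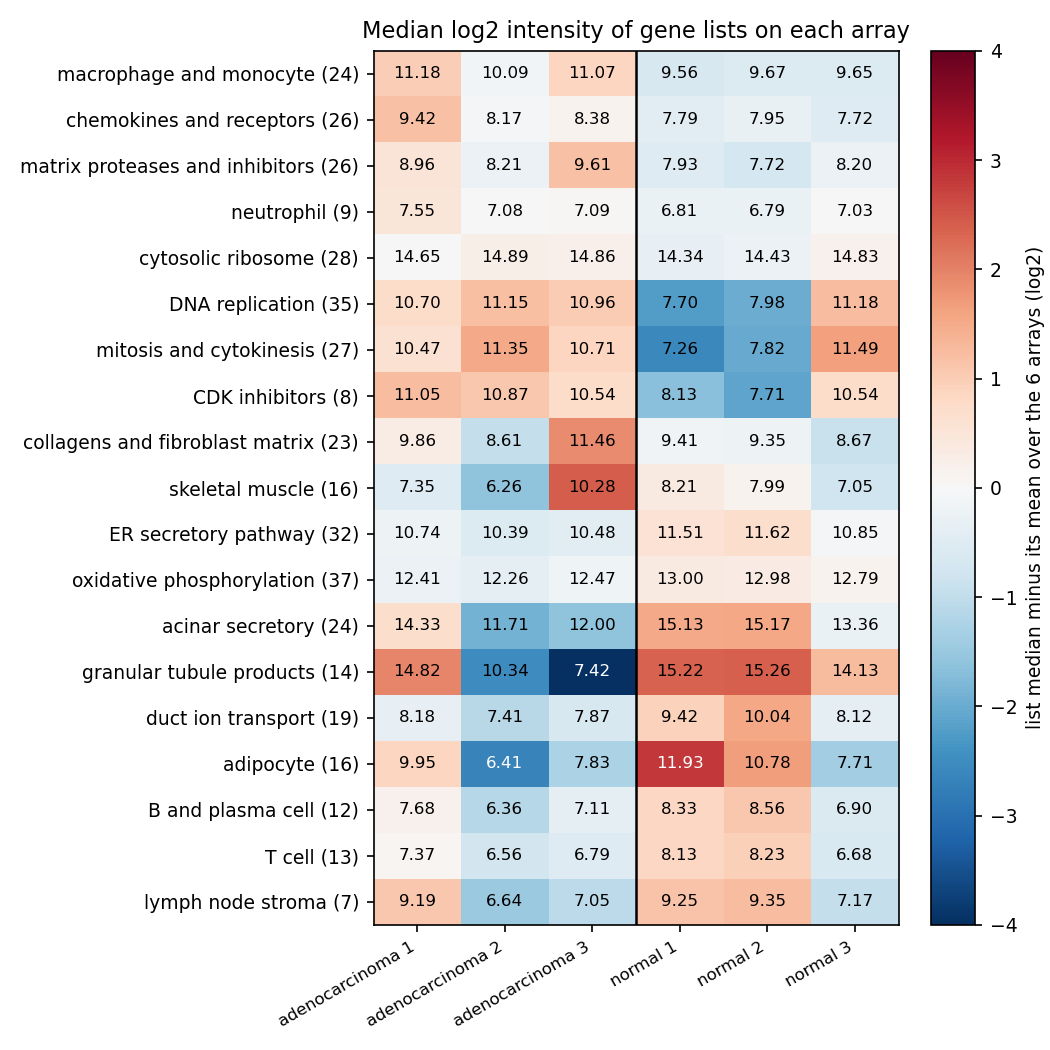
Median log2 intensity of the measured members of 19 gene lists (rows, with the number of members) on each adenocarcinoma and normal array (columns). Cell numbers are the medians and colours give the difference from the list's mean over the 6 arrays; macrophage genes separate the groups on every array (10.09 or more in adenocarcinoma, 9.67 or less in normal gland), and replication and mitosis genes set normal 1 and 2 apart from the other 4 arrays.

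Among lists with a median above 0, the largest medians belonged to lists whose level normal 3 shared with the tumours: mitosis, cyclin-dependent kinase inhibitors and DNA replication. Of 35 measured genes of DNA replication, 35 had a higher mean in adenocarcinoma, with a median difference of 1.62, but 0 lay apart from all normal arrays. The list median was 10.70, 11.15 and 10.96 in adenocarcinoma, against 7.70, 7.98 and 11.18 in normal 1, 2 and 3. Normal 3 exceeded every adenocarcinoma array on 16 of the 35 genes and lay within their range on the other 19. Mcm6, a subunit of the helicase that opens DNA for copying, had 12.60, 13.01 and 12.40 in adenocarcinoma, against 8.23, 9.39 and 12.63 in normal gland. Cdc6, which loads that helicase, had 12.06, 10.26 and 9.95 in adenocarcinoma, against 6.83, 7.07 and 10.19 in normal gland. Without normal 3, limma called 30 of the 35 higher and 0 lower, against 7.59% and 7.85% of all genes.

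Mcm6 and Cdc6 are shown as examples of E2F-type promoters in this list. The motif class searched on both strands was TTTCCCGC, TTTGGCGC, TTTCGCGC or TTTGCCGC, present in 7 of 32 windows (21.9%) of 28 replication genes, against 2.94% of the windows of all tested genes. The windows lie at chr1:128359706-128359955 for Mcm6 (GRCm38.p6, minus strand) and chr11:98907901-98908150 for Cdc6 (GRCm38.p6, plus strand), are credited to RefSeq and are printed 5′ to 3′ on the gene's strand with matches in capitals. The Cdc6 window lies inside the gene as annotated, which starts at 98907709. Mcm6 has 3 matches, of which those beginning 110 and 106 bases before the start that follows the window overlap. Cdc6 has 1 on the other strand, beginning 138 bases before the start that follows its window.
Mcm6: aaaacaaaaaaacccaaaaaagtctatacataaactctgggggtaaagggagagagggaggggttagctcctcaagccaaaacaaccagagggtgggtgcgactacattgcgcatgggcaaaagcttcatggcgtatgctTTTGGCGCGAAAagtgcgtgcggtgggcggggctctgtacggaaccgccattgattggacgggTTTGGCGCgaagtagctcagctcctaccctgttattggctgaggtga
Cdc6: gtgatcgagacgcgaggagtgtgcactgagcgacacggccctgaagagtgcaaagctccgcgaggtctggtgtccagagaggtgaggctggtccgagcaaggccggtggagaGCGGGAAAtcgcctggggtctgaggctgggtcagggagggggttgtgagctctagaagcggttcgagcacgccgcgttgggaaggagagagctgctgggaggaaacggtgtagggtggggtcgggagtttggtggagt

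Mitosis and cytokinesis genes behaved likewise, with 27 of 27 means higher in adenocarcinoma, a median difference of 2.21 and 0 genes apart. Cdk1, the kinase that drives entry into mitosis, had 11.61, 12.51 and 12.27 in adenocarcinoma, against 7.64, 8.10 and 12.25 in normal gland. Anln, a protein of the contractile ring, had 11.88, 12.22 and 12.28 in adenocarcinoma, against 7.32, 7.76 and 12.33 in normal gland, a difference of 2.99 ± 1.14 (SE, adjusted p = 0.288 in limma). On both genes normal 3 lay at the level of the tumours. The letters CCAAT, read on both strands, stood in 19 of 25 windows (76%) of 23 of these genes, against 34.8% of the windows of all tested genes. The E2F motif class stood in 1 of the 25 windows (4%), near the 2.94% over all tested genes. Limma called 25 of the 27 higher without normal 3, against 7.59% of all genes.

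Cyclin-dependent kinase inhibitors, which restrain this machinery, had 8 of 8 means higher in adenocarcinoma and a median difference of 1.90. Cdkn1c, the imprinted inhibitor p57, lay apart from all normal arrays, with 11.98, 13.77 and 11.999 in adenocarcinoma, against 10.22, 10.10 and 11.43 in normal gland, and a difference of 2.00 ± 0.67 (SE, adjusted p = 0.262 in limma). Cdkn1a, the p53 target p21, also lay apart, at 10.88, 10.83 and 10.82 in adenocarcinoma, against 9.94, 9.23 and 10.43 in normal gland. Cdkn2b and Cdkn2d lay with normal 3: Cdkn2d had 9.95, 10.21 and 9.86 in adenocarcinoma, against 7.37, 7.17 and 10.08 in normal gland. Rb1 itself overlapped, with 10.58, 10.63 and 9.84 in adenocarcinoma, against 10.25, 9.93 and 10.17 in normal gland, and its relative Rbl1 had 9.49, 10.05 and 9.78 in adenocarcinoma, against 7.63, 7.81 and 10.45 in normal gland.

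Targets of p53 split. Of 18 measured, 4 (22.2%) were higher and 2 (11.1%) lower without overlap, against 10.4% and 9.76% of all genes, with a median difference of 0.02 whose sign changed under 6 of 16 other settings. Bbc3, which encodes the cell death activator PUMA, had 10.02, 9.80 and 10.53 in adenocarcinoma, against 8.56, 8.70 and 9.11 in normal gland, a difference of 1.32 ± 0.29 (SE, adjusted p = 0.217 in limma). The 2 further probes of Bbc3 differed by only -0.18 and 0.24, and neither lay apart in the same direction. Mdm2, the ubiquitin ligase that degrades p53, had 11.42, 11.42 and 11.87 in adenocarcinoma, against 11.06, 11.10 and 10.65 in normal gland. Ccng1, cyclin G1, ran the other way, with 11.14, 11.22 and 10.77 in adenocarcinoma, against 12.37, 12.25 and 11.40 in normal gland. Of the BCL2 family, Bcl2l1, which encodes the survival protein BCL-XL, was lower on every tumour, with 8.31, 8.02 and 8.40 in adenocarcinoma, against 8.92, 9.04 and 8.77 in normal gland. Its 2 further probes differed by -0.29 and 0.03, and neither lay apart in the same direction. Mcl1, another survival protein, was higher by a gap of 0.04.

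Whether normal 3 sided with the tumours was counted over the genes limma called without it, 965 higher and 999 lower. The count is a description, since those genes were called from the other arrays. Its place was set to 0 at the mean of normal 1 and 2 and to 1 at the adenocarcinoma mean. It stood above 0.75 on 680 of the 965 higher genes (70.5%) and on 745 of the 999 lower ones (74.6%), with a median of 0.97 for each. It stood below 0.25, with the other normal arrays, on 52 higher (5.39%) and 35 lower genes (3.50%). Csrp1, a LIM domain protein, had the lowest adjusted p of that fit (1.21e-04 in limma without normal 3) and is an extreme case. It stood at 12.95, 13.03 and 12.80 in adenocarcinoma, against 6.998, 7.63 and 12.96 in normal gland. On the lower side Sec24d, a coat protein of vesicles leaving the endoplasmic reticulum, had 6.16, 6.01 and 6.25 in adenocarcinoma, all at background, against 10.11, 10.15 and 6.29 in normal gland. Its mean was at least 5.70-fold lower in adenocarcinoma (adjusted p = 0.265 in limma on all 9 arrays).

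**Figure D3:**
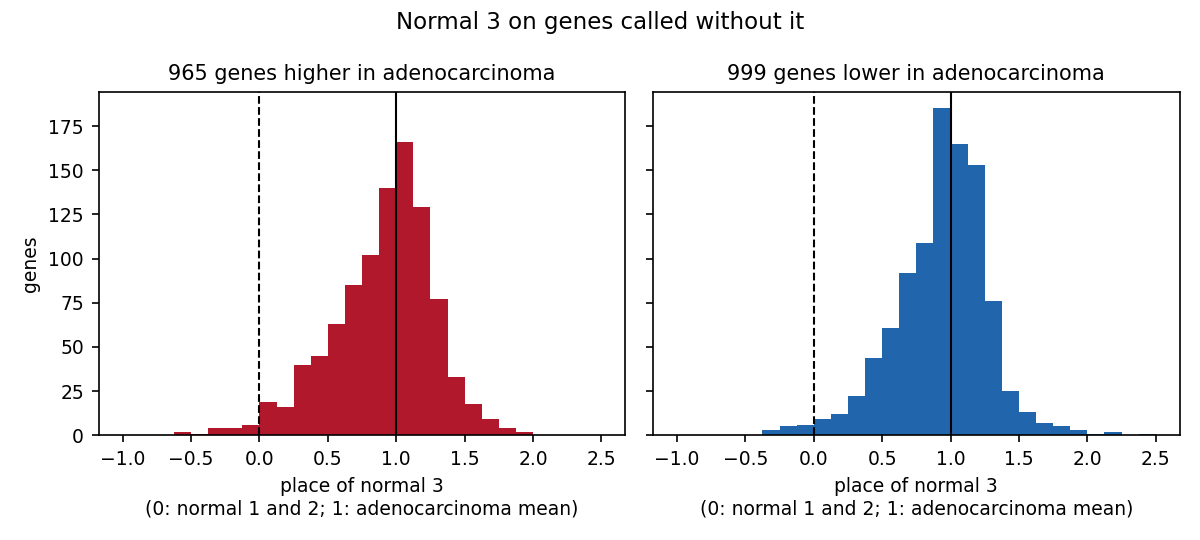
Number of genes (y axis) by the place of normal 3 (x axis, where 0 is the mean of normal 1 and 2 and 1 is the adenocarcinoma mean) for the 965 genes higher (left, red) and the 999 genes lower (right, blue) in adenocarcinoma in the limma fit without normal 3. Both histograms peak near 1, with medians of 0.97.

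Plotted against both kinds of normal array, the lists take different positions. Replication genes had a median difference of 2.52 from normal 1 and 2, but of -0.17 from normal 3, and mitosis genes 3.63 and -0.28. Macrophage genes had a median of 1.10 from normal 1 and 2 and of 0.79 from normal 3, and chemokines 0.69 and 0.54. The p-values without normal 3 describe the 2 remaining normal arrays, which were nearly equal (r = 0.992 over genes, which are not independent replicates).

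**Figure D4:**
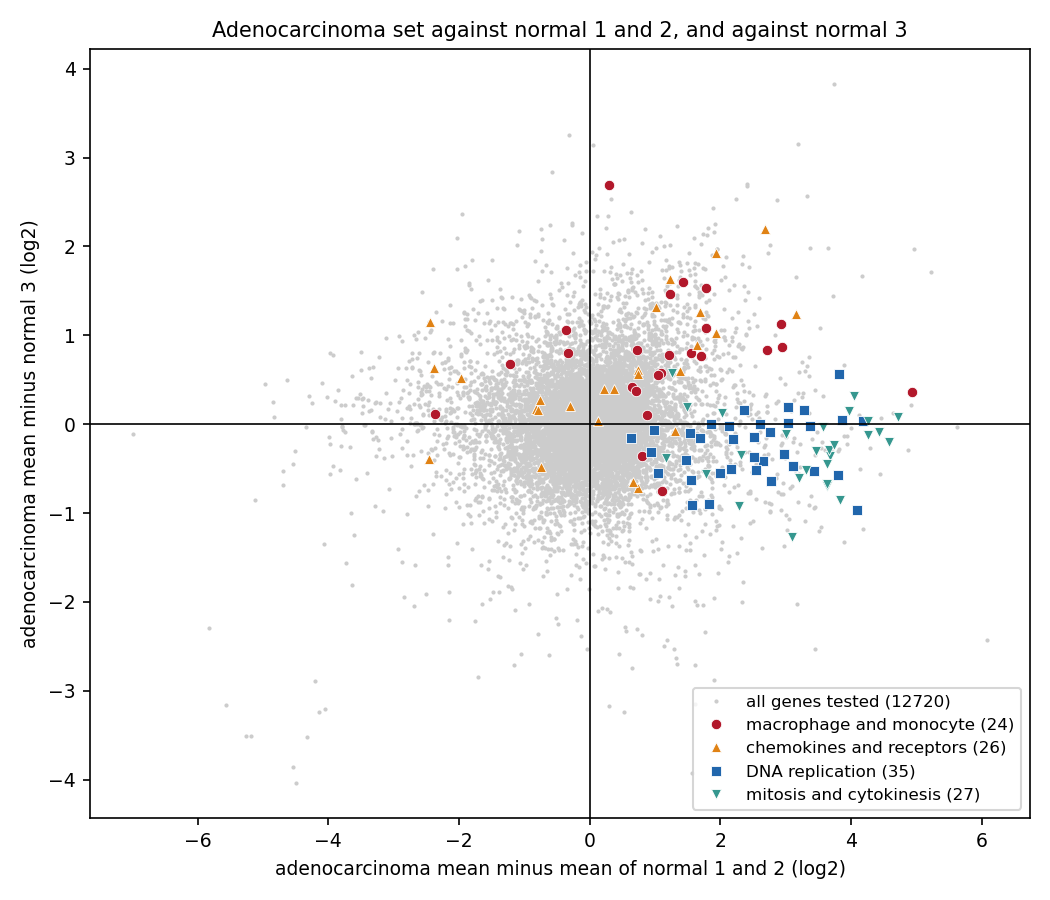
Each tested gene by its adenocarcinoma mean minus the mean of normal 1 and 2 (x axis, log2) and minus normal 3 (y axis, log2). Grey points are all 12720 genes; replication (blue squares) and mitosis genes (green triangles) spread along x near y = 0, with median y values of -0.17 and -0.28, and macrophage (red circles) and chemokine genes (orange triangles) have medians above 0 on both axes (1.10 and 0.79, and 0.69 and 0.54).

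Among genes of the cell's general machinery, cytosolic ribosomal proteins were shifted by a small amount on many members, with a median difference of 0.30. Of 28 measured, 11 (39.3%) were higher without overlap and 0 lower, against 10.4% and 9.76% of all genes. From normal 3 alone the median difference of the list was -0.017. Normal 3 lay below every tumour on 12 of the 28 genes and above every tumour on 8. Rps24 had 15.48, 15.38 and 15.42 in adenocarcinoma, against 14.86, 14.86 and 15.19 in normal gland, and Rpl10a had 14.99, 15.17 and 15.12 in adenocarcinoma, against 14.47, 14.58 and 14.84 in normal gland. Normal 3 lay between the other normal arrays and the tumours on both. Most gaps on this list were small, and the widest was 0.21, for Rpl4. Nop14, which helps to assemble the small ribosomal subunit, lay apart by more, with 10.01, 10.18 and 10.18 in adenocarcinoma, against 8.94, 8.97 and 9.39 in normal gland, a difference of 1.03 ± 0.17 (SE, adjusted p = 0.176 in limma). Of the proteasome, Psmd14, the subunit that strips ubiquitin from substrates, had 11.12, 11.38 and 11.37 in adenocarcinoma, against 10.38, 10.14 and 10.68 in normal gland.

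Genes of the secretory pathway pointed down. Of 32 measured, 6 (18.8%) were lower without overlap and 1 higher, against 9.76% and 10.4% of all genes, with a median difference of -0.52. Limma called 13 lower and 0 higher without normal 3, against 7.85% and 7.59% of all genes. The median difference was -0.74 from normal 1 and 2 and -0.16 from normal 3. Normal 3 lay above every tumour on 6 of the 32 genes and below every tumour on 10. Sec31a, of the coat of vesicles leaving the endoplasmic reticulum, had 8.98, 9.07 and 8.99 in adenocarcinoma, against 10.32, 10.38 and 9.46 in normal gland, a difference of -1.05 ± 0.26 (SE, adjusted p = 0.225 in limma). Hspa5, the chaperone BiP, had 7.29, 7.52 and 7.16 in adenocarcinoma, against 8.80, 8.50 and 7.72 in normal gland, and Sec61a1, the channel through which proteins enter this compartment, had 10.55, 10.29 and 10.26 in adenocarcinoma, against 11.74, 11.92 and 10.81 in normal gland. On the 3 genes normal 3 was the lowest normal array, above every tumour. Xbp1, a transcription factor of secretory cells, overlapped, at 14.22, 14.21 and 12.69 in adenocarcinoma, against 13.86, 14.08 and 13.89 in normal gland.

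Oxidative phosphorylation had 8 of 37 measured genes (21.6%) lower and 2 higher without overlap, against 9.76% and 10.4% of all genes, with a median difference of -0.31. That median was -0.52 from normal 1 and 2, but 0.03 from normal 3. Normal 3 lay above every tumour on 10 of the 37 genes and below every tumour on 10. Ndufa9 of complex I had 12.41, 12.56 and 12.28 in adenocarcinoma, against 12.99, 12.98 and 12.93 in normal gland, and Cox5a of complex IV had 13.68, 13.61 and 13.51 in adenocarcinoma, against 14.27, 14.23 and 14.02 in normal gland. The normal arrays agreed closely on both, and the differences were -0.55 ± 0.14 and -0.57 ± 0.18 (SE, adjusted p = 0.225 and 0.254 in limma). Atp5b and Cox4i1, by contrast, were higher on every tumour, by gaps of 0.01 and 0.02, but differed by less than 0 after cyclic loess (-0.0029 and -0.017).

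Secretory products of the gland were lower on average without separating the groups. Of 24 measured acinar genes 3 (12.5%) were lower without overlap and 0 higher, near the 9.76% of all genes that were lower, with a median difference of -1.32. The list median was 14.33, 11.71 and 11.998 in adenocarcinoma, against 15.13, 15.17 and 13.36 in normal gland, so that adenocarcinoma 1 lay above normal 3. The largest gap belonged to the transcription factor of secretory cells Bhlha15, also called MIST1, with 10.68, 11.74 and 10.66 in adenocarcinoma, against 13.31, 13.56 and 12.26 in normal gland, a difference of -2.01 ± 0.58 (SE, adjusted p = 0.234 in limma). Spdef, a factor of mucous cells, had 9.23, 9.77 and 7.09 in adenocarcinoma, against 10.06, 10.46 and 10.33 in normal gland. Amy1, the salivary amylase, overlapped, with 14.57, 11.24 and 14.54 in adenocarcinoma, against 15.38, 15.14 and 13.73 in normal gland. Scgb2b24, a secretoglobin, had 5.95, 6.06 and 5.84 in adenocarcinoma, all at background, against 7.86, 7.54 and 6.41 in normal gland.

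Of 29 salivary transcription factors 4 (13.8%) were lower without overlap and 0 higher, near the 9.76% of all genes that were lower. Beside Bhlha15 and Spdef these were Pitx1, a homeobox factor, with 7.49, 7.13 and 6.21 in adenocarcinoma, against 7.58, 7.74 and 8.32 in normal gland, and Foxi1, a factor of ion-transporting cells, with a gap of 0.03. Sox10 of acinar and myoepithelial cells had 8.91, 6.73 and 8.87 in adenocarcinoma, against 11.52, 11.98 and 7.88 in normal gland, where normal 3 lay among the tumours. Duct genes had 2 of 19 (10.5%) lower and 0 higher, also near the share over all genes. Scnn1a, of the sodium channel by which ducts take up salt, had 8.68, 7.41 and 6.55 in adenocarcinoma, against 10.48, 10.74 and 8.27 in normal gland, a difference of -2.29 ± 0.73 with overlap between adenocarcinoma 1 and normal 3.

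The 3 adenocarcinomas were unlike each other in the products of the gland. Over all genes, the range among the adenocarcinoma arrays reached 1 for 2777 genes (21.8%), and that among the normal arrays for 3340 (26.3%). Adenocarcinoma 3 stood at least 2-fold above both other tumours on 631 genes and below both on 476, against 322 and 40 for adenocarcinoma 1 and 156 and 419 for adenocarcinoma 2. Products of the granular tubule were the widest. Their list median was 14.82, 10.34 and 7.42 in adenocarcinoma 1, 2 and 3, against 15.22, 15.26 and 14.13 in normal gland, and none of the 14 measured genes lay apart. Egf, the growth factor of this segment, had 14.34, 10.54 and 8.29 in adenocarcinoma, against 15.22, 15.31 and 13.94 in normal gland, a difference of -3.77 ± 1.56 (SE, adjusted p = 0.305 in limma). Klk1b9, a kallikrein, had 15.04, 10.24 and 7.24 in adenocarcinoma, against 15.44, 15.23 and 14.88 in normal gland. Adenocarcinoma 1 kept values near normal 3 for both. The Klk1b genes are near-identical copies, so a value may come from several of them.

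Other genes left adenocarcinoma 3 alone. Esrp1, a splicing regulator of epithelial cells, had 13.51, 13.84 and 9.36 in adenocarcinoma, against 13.13, 13.18 and 13.34 in normal gland. Smgc, a salivary mucin-like gene, had 13.33, 13.80 and 7.10 in adenocarcinoma, against 11.93, 13.56 and 12.57 in normal gland, and Lman1l, a cargo lectin relative, had 11.90, 13.10 and 6.56 in adenocarcinoma, against 11.46, 11.67 and 13.11 in normal gland. On all 3, adenocarcinoma 1 and 2 were at or above the level of most normal arrays. The water channel Aqp5 of acinar cells followed, at 13.23, 14.08 and 11.09 in adenocarcinoma, against 13.87, 14.14 and 14.63 in normal gland. Yet Cst10, Amy1 and Pip, further acinar genes, were high in adenocarcinoma 3 and low in adenocarcinoma 2: Cst10 had 14.92, 9.93 and 15.22 in adenocarcinoma, against 15.32, 15.24 and 14.03 in normal gland.

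Markers of other tissues also moved with single tumours. Skeletal muscle genes had list medians of 7.35, 6.26 and 10.28 in adenocarcinoma, against 8.21, 7.99 and 7.05 in normal gland, with a summed intensity of 61643 in adenocarcinoma 3 and at most 18397 on the other 5 arrays. The fast muscle gene Tnnc2 had 7.88, 6.28 and 12.03 in adenocarcinoma, against 10.24, 9.59 and 7.30 in normal gland. The median for collagens and fibroblast matrix was 9.86, 8.61 and 11.46 in adenocarcinoma, against 9.41, 9.35 and 8.67 in normal gland, and 3 of 23 measured genes (13.0%), Thbs2, Tnc and Fbln2, lay apart on the higher side, near the 10.4% of all genes. Tnc, the matrix glycoprotein tenascin-C, had 9.37, 8.05 and 11.46 in adenocarcinoma, against 7.90, 7.87 and 7.49 in normal gland. The collagen list median of 0.28 was below 0 with array weights and without adenocarcinoma 3.

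Adipocyte genes had a median difference of -1.54 and 1 of 16 (6.25%) lower without overlap (Cebpa), against 9.76% of all genes. Adipoq, the fat hormone adiponectin, had 11.87, 6.79 and 10.51 in adenocarcinoma, against 13.86, 13.14 and 9.79 in normal gland, and the brown fat gene Ucp1 had 9.98, 5.97 and 6.63 in adenocarcinoma, against 12.79, 11.54 and 7.03 in normal gland. For both, adenocarcinoma 2 was the lowest tumour and normal 3 the lowest normal array, and the groups overlapped. The summed intensity of the list was 2888 to 22347 in adenocarcinoma, against 89205, 52163 and 6381 in normal 1, 2 and 3. The part of fat, muscle or connective tissue around the gland in the differences given above was not tested.

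**Figure D5:**
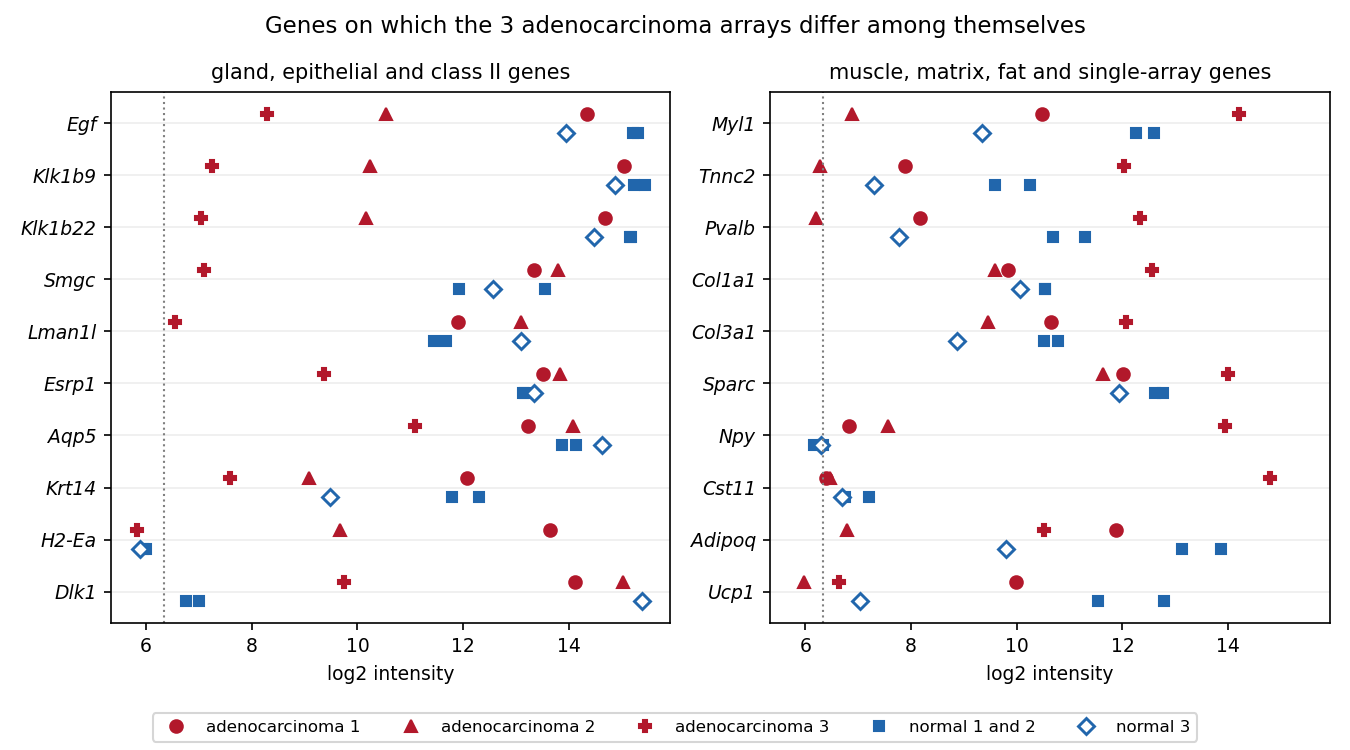
Log2 intensity (x axis) of 20 genes on which the adenocarcinoma arrays differ among themselves, with gland, epithelial and class II genes on the left and muscle, matrix, fat and single-array genes on the right. Red circles, triangles and plus signs are adenocarcinoma 1, 2 and 3, blue squares normal 1 and 2, open diamonds normal 3, and the dotted line is the background level of 6.34; adenocarcinoma 3 is the lowest tumour for Egf, Smgc, Lman1l and Esrp1 and the highest for Myl1, Tnnc2, Npy and Cst11.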

How the data were processed

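Gene expression was measured on 9 Illumina BeadChip arrays of Smgb-Tag submandibular glands. Per the labels' protocols, RNA was extracted with guanidinium and phenol and on columns and labelled with biotin, and limma is named, with no version, in the submitters' processing notes. The deposited intensities are linear and were quantile-normalized by the authors, as the values show, since the sorted columns differ by at most 0.0992%; 18 columns of a second table match no sample's labels and were not used. From these, log2 intensities were taken without further normalization. Of 45281 probes, 34885 have 1 gene symbol in the platform annotation, 18 several and 10378 none, and 34807 matched a current gene by Entrez number, with 0 symbols changed.

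Background was 81.0, the 95th percentile of the dim spread around a mode of 65.3. A gene needed a probe above it on 3 of 9 arrays, and its probe with the highest mean was used (5302 genes had several). Group means were fitted with limma 3.58.1 in R 4.3.3 on all 9 arrays (6 residual degrees of freedom, 5 without normal 3) with Benjamini-Hochberg adjustment over 12720 genes, and the fit was tested on simulated data. All p-values are two-sided. Intensities carry no counts, so the number of arrays sets the precision.

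Genes are named by the size of the gap (20 per direction), by p without normal 3 (15 per direction), by list (up to 5 apart, or else 2), by range among tumours (10), by the gap of normal 3 (10 per direction) or from a fixed set. Clone names were left out. Other members of a list were chosen after their values were seen. The comparison, members and lists were chosen with earlier results of these data known. Same-numbered arrays deviated from their group means with correlations of 0.239, -0.463 and -0.229. Normal 1 and 2 gave like correlations with each tumour, such as 0.239 and 0.267 for adenocarcinoma 1. These values therefore cannot show whether the numbers pair the arrays, and the main fit used no pairing. Alternatives were an added constant of 16, no or a stricter filter, the mean over probes, the 6 arrays alone, array weights, a replicate block, cyclic loess, centring on the median, background subtraction and leaving out each array.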

Additional observations from a re-analysis of the deposited data

How the results depend on the processing

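The number of genes past an adjusted p of 0.05 in limma was 0 under 8 of 10 alternatives that kept the 6 arrays compared; it was 6 without the filter on dim probes (Cep295 and Crebbp higher, and Btrc, Kdm2a, Pitpnm2 and Trappc9 lower) and 4484 with array weights, where normal 3 had the lowest weight, 0.169. Of the 1964 genes called without normal 3, 1958 were among those 4484. Leaving out 1 array gave 0 to 1964 genes, with 1964 without normal 3 and 1, Dbp, without adenocarcinoma 2. At an unadjusted p under 0.05 there were 5925 genes with array weights and 863 to 3984 on leaving out 1 array (897, 863 and 3984 without normal 1, 2 and 3). Without overlap there were 2943 to 7120 genes on leaving out 1 array, where fewer arrays make separation easier by construction. A 2-fold gap, which held for 22 genes in the main setting, held for 15 (12 higher and 3 lower) with the mean over the probes of a gene. It held for 20 with the added constant of 16, for 51 after background subtraction and for 26 to 1051 on leaving out 1 array, the most without normal 3. Centring on the median of tested genes gave 1150 higher and 1417 lower genes without overlap. With the replicate block, limma called 0 genes (1867 at an unadjusted p under 0.05). Between 26 and 35 of the 60 lists had a median above 0 under the alternatives. Of single genes named, with array weights, the sign turned for Col1a1 (-0.35), Csf1r (-0.25), Mrc1 (-0.29), Sparc (-0.43) and Tpsab1 (0.31), the last also after background subtraction (0.069). After cyclic loess, the sign turned for Atp5b (-0.0029) and Cox4i1 (-0.017). With the mean over the probes of a gene, the sign turned for Csf1r (-0.12). On leaving out 1 array it turned for genes that overlapped between the groups, whose log2 differences then ran over these ranges: Camp -0.20 to 0.14, Col1a1 -0.66 to 0.83, Col3a1 -0.0029 to 1.30, Csf1r -0.33 to 0.48, Cst10 -2.44 to 0.21, Cst11 -0.45 to 3.75, Esrp1 -1.78 to 0.46, Lman1l -2.85 to 0.42, Mmp2 -1.10 to 0.16, Mrc1 -0.50 to 0.92, Myl1 -2.72 to 0.94, Per1 -0.76 to 0.069, Pip -1.35 to 0.19, Pvalb -2.73 to 0.34, Smgc -2.47 to 0.88, Sparc -0.61 to 0.57, Tnnc2 -1.97 to 0.91, Tpsab1 -0.52 to 0.59 and Xbp1 -0.50 to 0.27. The other gene values kept their sign, 2136 on the same side of the threshold and 172 newly past it. The cause was not tested for any of these. Intensities near background limit what dim genes can show.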

Other observations

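Genes that follow the body clock showed a pattern of their own, and the genes in this paragraph other than Per2 were chosen after their values were seen. Dbp, a clock-controlled transcription factor, had 12.17, 10.25 and 12.60 in adenocarcinoma, against 9.60, 9.68 and 9.90 in normal gland. Every tumour lay above every normal array, adenocarcinoma 2 by 0.36, and the difference was 1.95 ± 0.53 (SE, adjusted p = 0.225 in limma). Its relative Tef had 10.42, 9.93 and 10.68 in adenocarcinoma, against 9.49, 9.34 and 9.39 in normal gland. Per2, a repressor of the clock, lay with normal 3, at 9.92, 9.74 and 9.70 in adenocarcinoma, against 7.41, 7.23 and 9.56 in normal gland. Arntl, the activator that pairs with Clock, ran the other way with overlap, at 7.40, 7.05 and 8.66 in adenocarcinoma, against 9.69, 9.51 and 7.88 in normal gland. Per1 and Nr1d1 overlapped, with differences of -0.34 ± 0.46 and -0.44 ± 0.35. The hour at which glands were taken is not given in the labels, and its part was not tested.

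A few genes were on or off by array. H2-Ea, a class II gene that some inbred mouse strains do not express, had 13.64, 9.68 and 5.82 in adenocarcinoma, against 5.99, 5.95 and 5.89 in normal gland. Adenocarcinoma 3 and all normal arrays were below background, the 3 dysplasia arrays had 9.46 to 11.52, and the adenocarcinoma mean was at least 10.4-fold higher. The class II gene H2-Aa ran in the other order among the tumours, with 7.24, 8.89 and 11.48 in adenocarcinoma, against 11.97, 12.13 and 11.15 in normal gland. Npy, the neuropeptide, had 6.83, 7.57 and 13.95 in adenocarcinoma, against 6.17, 6.34 and 6.29 in normal gland, and Cst11, a cystatin, had 6.39, 6.47 and 14.79 in adenocarcinoma, against 7.21, 6.74 and 6.69 in normal gland. Of the mast cell proteases Mcpt4 and Tpsb2 were lower on every tumour than on any normal array, while Cma1, Cpa3 and Tpsab1 overlapped. Mcpt4 had 6.75, 6.24 and 6.99 in adenocarcinoma, against 8.56, 8.22 and 7.18 in normal gland.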
